A study of Danio rerio with 4 samples.

Results

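The collagen chain genes are the genes whose symbol is "col" followed by a type number, the letter a and a chain number. The pattern matched 56 of the 31466 features in the zebrafish gene table. Of these, col4a3bpa and col4a3bpb encode ceramide transfer proteins rather than chains, so these 2 were set aside. The 54 chain features carry 52 symbols, since col6a3 and col19a1 each have 2 identifiers, and they span 21 collagen types.

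The chains were followed through 4 single-cell libraries from hearts of adult AB wildtype zebrafish. Of these libraries, 2 were labelled 6hps from sham-operated fish and 2 were labelled 6hpci from cryoinjured fish. In a cryoinjury a cold probe is held to the apex of the ventricle. Every fish of both groups was given 4-thiouridine (4sU), a uridine analogue that marks new RNA, by intrathoracic injection before the operation, and hearts were collected 6 h after it. Several hearts were pooled for each library, and the dissociated cells were fixed in methanol and treated with iodoacetamide before droplet sequencing from the 3′ end. No group without 4sU or without an operation enters the comparisons, so what both groups share cannot be seen in them. Counts of labelled and unlabelled RNA were not split, because the count matrices do not separate them. The study describes the libraries as independent of each other both in fish and in experiment, and it names them as replicate pairs of a sham and an injury library. With 2 libraries a group, the p-values rest on a spread that is itself poorly known.

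Collagens are triple-helical matrix proteins built from chains that each come from their own gene. Types I and V form the fibrils that bear tension, type VI forms beaded filaments around cells, type IV forms the sheet of the basement membrane, and type XVIII is a basement membrane proteoglycan whose end fragment is known as endostatin. In the zebrafish heart, collagen-producing fibroblasts and the epicardium are known as sources of the transient scar that forms after cryoinjury.

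The libraries held 15971 to 23000 barcodes and 86891164 to 136777379 UMIs (unique molecular identifiers, each standing for 1 captured RNA). Median mitochondrial content was 27.8 to 33.4% of UMIs in 3 libraries and 46.3% in 6hpci replicate 2, in which 46.4% of barcodes lay over the limit of 50% against 15.7 to 20.01% in the others. The pairs of libraries shared 84 to 128 barcodes, except 6hps replicate 1 and 6hpci replicate 1, which shared 293, or 1.83% of the smaller library. Where 4 values stand in a row below, they are in the order 6hps replicate 1, 6hps replicate 2, 6hpci replicate 1 and 6hpci replicate 2.

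Cells were placed in gates by marker genes, and no collagen gene was among the markers. A gate is a range of a marker score and not a cell type set by the authors, and its thresholds were chosen after marker detection had been seen. Of 55075 cells kept, 25571 entered a gate, 810 carried strong scores for more than 1 class and were left out as possible doublets, and 28694 were not gated. Of the gates, 9 had at least 30 cells in every library. The fibroblast-like gate held 153, 331, 105 and 152 cells, and 206 of its 741 cells (27.8%) lay near the limit of the gate, with a score under 10.

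The fibroblast-like label rests on part of its markers. The matrix and complement genes mfap5, dpt, dcn and c4 were detected in 89.5 to 94.6%, 67.6 to 89.7%, 59.5 to 89.5% and 67.6 to 80.7% of the gated cells, by library. The marker c6 varied widely between libraries, from 17.6 to 93.1% of these cells, so the gate may not hold the same cells in each. The receptor pdgfra was detected in 0.952 to 9.97% of these cells and lum in 1.96 to 6.04%. The markers prrx1a and mxra8b were detected in 0.658 to 6.95% and 1.31 to 13.2%, and prrx1b was at 0 in every library. The epicardium-like gate (359, 567, 244 and 353 cells) had krt94 in 100% of cells, tbx18 in 29.2 to 40.6%, wt1b in 3.28 to 26.6% and wt1a in 0.410 to 2.12%. The gate for smooth muscle and mural cells, the mural gate below (76, 360, 155 and 105 cells) had acta2 in 96.7 to 100% and pdgfrb in 0.645 to 7.89%. In this gate tagln was detected in 97.4 to 100% and myh11a in 80.3 to 90.5%. The markers notch3, cspg4, rasl12 and ndufa4l2a reached at most 13.1, 8.33, 6.39 and 2.63%, and each was at 0 in at least 1 library. The mural label thus rests mainly on acta2, tagln and myh11a. Cardiomyocyte marker RNA, which these cells should lack, made up 4.90, 5.84, 4.48 and 3.10% of UMIs in the fibroblast gate, and haemoglobin RNA 0.397, 0.906, 2.62 and 1.38%. In the same gate the epicardial markers summed to 624, 1442, 857 and 2024 CPM (UMIs of a gene per 1000000 UMIs of the gate in that library), beside 2810, 3640, 2834 and 5398 CPM for its own markers. The part of these in the collagen values was not tested.

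The erythrocyte-like gate, which serves below as the reference level, is also marked in part. Haemoglobin genes made up 18.7, 22.1, 19.46 and 40.1% of its UMIs, mitochondrial genes 21.1, 20.1, 20.6 and 18.8% and cardiomyocyte markers 6.10, 5.44, 4.99 and 2.205%. The haemoglobin genes hbba1 and hbaa1 were detected in 100% of its cells in each library, whereas slc4a1a, the anion exchanger of the red cell membrane, was detected in 19.4 to 26.7% and alas2, the first enzyme of haem synthesis in red cells, in 28.7 to 62.3%. How much RNA of other cells this gate holds was not tested.

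Collagen RNA was scarce and uneven among the chains. All 4 libraries together held 61748 chain UMIs, which made up 0.00768, 0.0199, 0.0112 and 0.0139% of the UMIs of each library. A UMI was seen for 45 of the 54 features, 18 of which reached 100 UMIs, and the 9 most abundant made up 88.0% of all chain UMIs. Type I gave 47.0% of the chain UMIs, type VI 22.6%, type XVIII 13.1%, type V 11.1%, type IV 3.29%, type XII 1.33% and type X 0.554%. These shares compare 3′ end UMIs, which are not divided by transcript length, so they rank captured RNA and not protein.

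The remaining types were rare. The highest chain of each was col16a1 with 106 UMIs, col27a1b with 145, col2a1b with 89, col8a1b with 62, col19a1 with 33 in its more abundant identifier, col15a1b with 22, col14a1a with 14, col17a1b with 10 and col11a1a with 10. Below these came col9a2 and col9a1a with 6 UMIs each, col28a1b with 5, col21a1 with 3 and col7a1 with 1. All 10 UMIs of col17a1b were in 6hpci replicate 2, the only library with cells gated as surface epithelium (46 cells). Whether the UMIs came from such cells was not tested. The 9 features with no UMI were col7a1l, col28a2b, col17a1a, col10a1a, col2a1a, col5a3b, col9a1b, col24a1 and col28a1a. A count of 0 among 453290669 UMIs allows a level of up to 0.00662 CPM over the 4 libraries together, for counting error only, so these chains were not detectable at this depth rather than shown to be absent. They include col2a1a and col9a1b, both chains of cartilage collagens, and col24a1, the only feature of type XXIV.

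Of the 9 gates, the fibroblast gate held the highest collagen share in every library. Chain RNA made up 0.0808, 0.220, 0.129 and 0.291% of its UMIs, from 653, 4204, 603 and 2257 chain UMIs. The Wilson 95% interval of the lowest of these was 0.0749 to 0.0873%, which covers counting error only and is far narrower than the spread between libraries. The epicardium gate followed with 0.0282, 0.0704, 0.0362 and 0.0935%. Each epicardial value lay below the fibroblast value of the same library, although the ranges over libraries overlapped.

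The other gates carried less. Smooth muscle and mural cells had 0.0115, 0.0259, 0.0216 and 0.0292%, and the endocardium 0.0127, 0.0315, 0.0141 and 0.0256%. The erythrocyte gate had 0.00519, 0.0141, 0.00897 and 0.00613%. Erythrocytes are not known as makers of collagen, so this gate was taken as the reference level, although the ventricular gate lay lower still. Against the erythrocytes of the same library, the fibroblast gate was 14.3 to 47.4 times higher, the epicardium 4.03 to 15.2 times, smooth muscle and mural cells 1.84 to 4.76 times and the endocardium 1.58 to 4.18 times. Macrophages lay at 0.704 to 1.36 times, neutrophils at 0.892 to 1.84 times, atrial cardiomyocytes at 0.819 to 1.09 times and ventricular cardiomyocytes at 0.410 to 0.533 times the erythrocyte level. With mitochondrial and haemoglobin UMIs taken out of the totals, an alternative chosen after seeing the data, the range was 11.9 to 27.6 times for fibroblasts and 1.22 to 2.28 times for the endocardium.

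**Figure D1:**
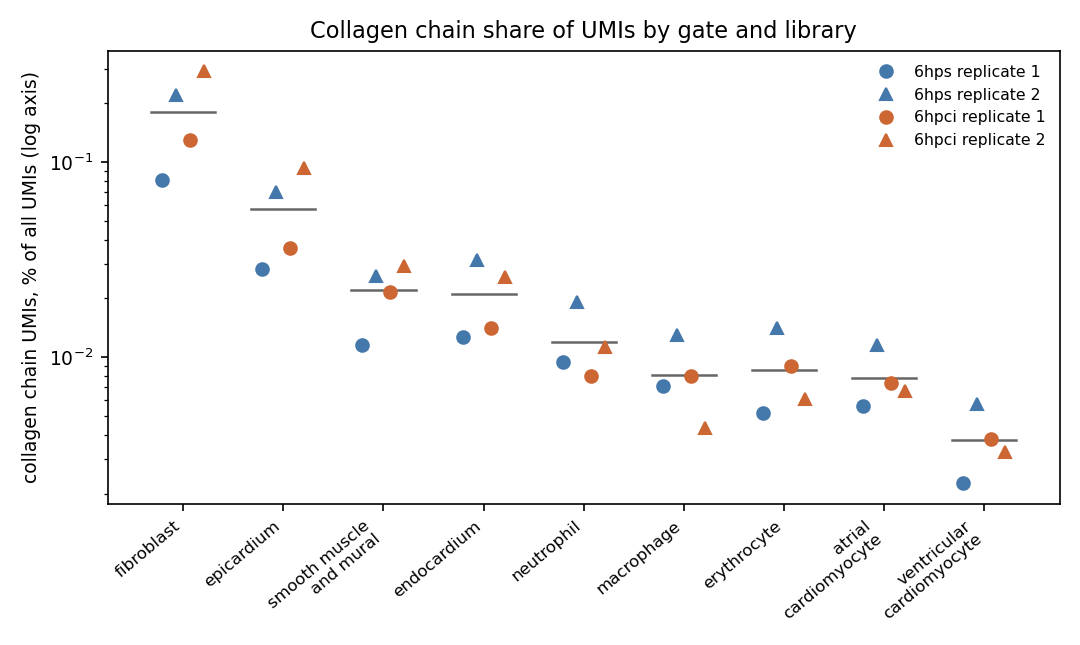
Share of all UMIs that came from collagen chain genes, in percent on a log axis, for each gate; each point is 1 of the 4 libraries. The fibroblast gate lies at 0.0808 to 0.291% and the erythrocyte gate at 0.00519 to 0.0141%.

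The fibroblast gate stayed the highest and the epicardium gate second in each library when cells were thinned to 1000 UMIs. Shallower cells were left out, all of them in 6hpci replicate 1, where 6 of 105 fibroblast-gated, 8 of 155 mural and 14 of 1972 erythrocyte-gated cells were too shallow. A collagen UMI was then found in 49.0, 82.2, 65.7 and 87.5% of fibroblast-gated cells, in 29.5, 48.7, 32.4 and 63.7% of the epicardium gate in 21.1, 22.5, 27.2 and 26.7% of the mural gate and in 12.9, 26.03, 14.2 and 25.2% of the endocardium. The share among erythrocytes was 3.67, 9.02, 6.33 and 2.87%. The order of the lower gates was not kept, since in 6hps replicate 1 the endocardium was above the mural gate by share of UMIs and below it after thinning, and in 6hpci replicate 1 the atrial cells moved from below the erythrocytes to above them, at 7.18%. Before thinning, the fibroblast gate had 87.6, 98.5, 91.4 and 99.3% and the erythrocytes 25.9, 40.1, 36.4 and 13.8%, at median depths of 2744 to 3798 and 6982.5 to 10157 UMIs. Fibroblast-gated cells were therefore the shallower group and still more often had a collagen UMI.

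To ask which chains marked which gate, summed counts per library and gate were compared with edgeR's quasi-likelihood test, with the library as a term. Each gate was set against the mean of the other 8 gates on the log scale, and 8568 genes were tested, 15 of them chains. All 15 chains were higher in the fibroblast gate (background: 6.02% of all genes higher and 2.94% lower, adjusted p under 0.05). Their log2 differences ran from 1.58 to 4.302, with Benjamini-Hochberg adjusted p from 1.7e-19 to 9.1e-05, and their median was 3.75 beside -0.12 over all genes. The remaining 39 chain features were too low for this test, which includes every feature with no UMI. The 15 passed a count minimum that the gate where they are high can meet alone.

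Among the 18 chains with at least 100 UMIs, the fibroblast gate had the highest mean level for 14. The exceptions were col18a1a (atrial cardiomyocytes), col12a1a (epicardium), col6a4a (smooth muscle and mural cells) and col10a1b (neutrophils). The atrial gate was the highest for col18a1a in 3 of 4 libraries and the mural gate for col6a4a in 3 of 4, whereas the epicardium led for col12a1a in 2 and the neutrophils for col10a1b in 1.

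**Figure D2:**
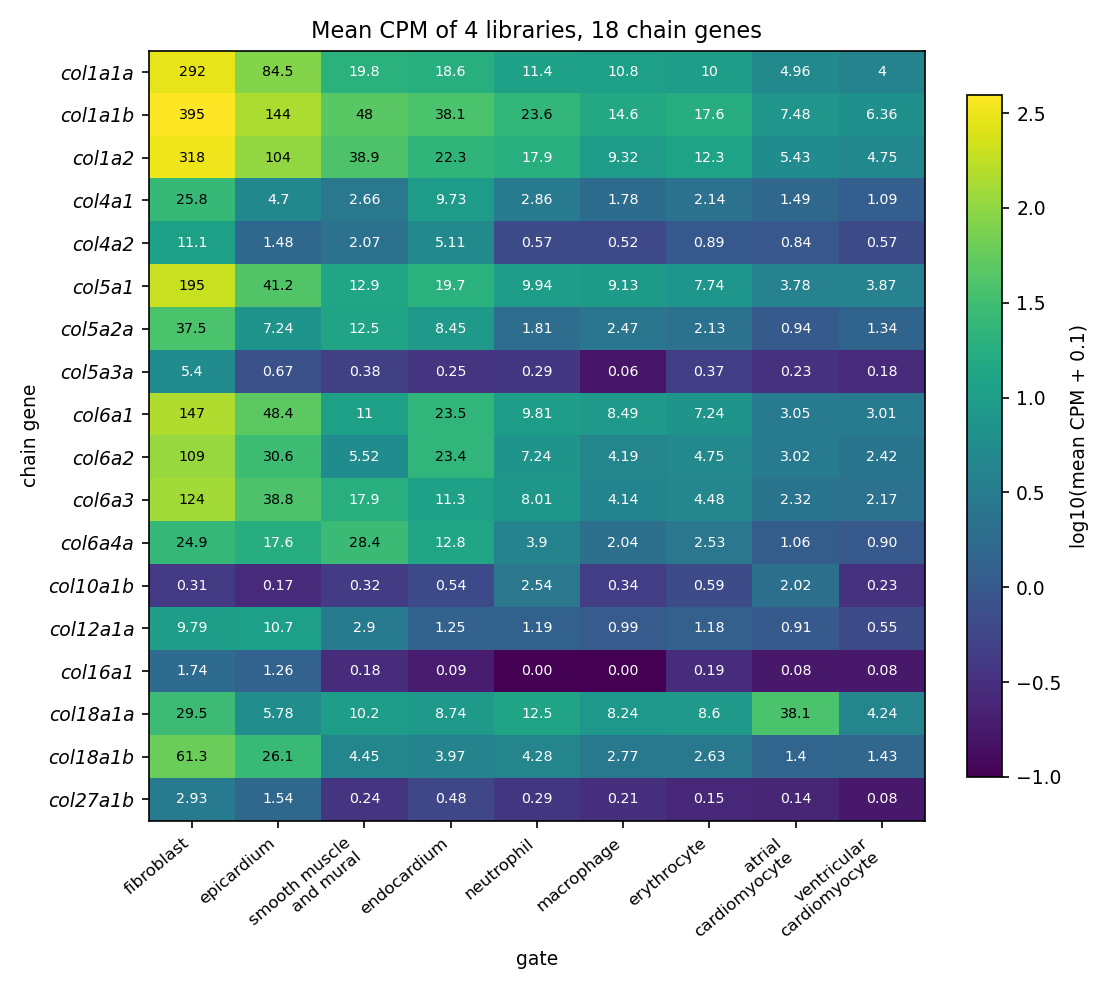
Mean CPM over the 4 libraries, as log10 of the mean plus 0.1, for the 18 chain genes with at least 100 UMIs (vertical axis) in the 9 gates (horizontal axis). The fibroblast column is the brightest for 14 of the 18 chains, and col18a1a stands out in the atrial column.

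Type I, the main collagen of fibrils, led in the fibroblast gate. The level of col1a1b (ENSDARG00000035809), an alpha 1 chain, was 187, 565, 258 and 570 CPM. That of col1a2 (ENSDARG00000020007), the alpha 2 chain, was 129, 425, 232 and 487 CPM, and that of col1a1a (ENSDARG00000012405), the second alpha 1 chain, was 115, 406, 203 and 444 CPM. For each chain the lowest value was that of 6hps replicate 1, while 6hps replicate 2 and 6hpci replicate 2 were the highest pair, so the spread lay as much within groups as between them.

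In the epicardium gate col1a1b measured 64.4, 193, 91.4 and 226 CPM, col1a2 48.1, 138, 53.7 and 177 CPM, and col1a1a 43.8, 109, 48.2 and 137 CPM. Smooth muscle and mural cells had 22.4, 57.2, 62.5 and 49.99 CPM of col1a1b, and erythrocytes 7.56, 32.4, 17.8 and 12.5 CPM. Every fibroblast value exceeded every value of the mural gate. The fibroblast gate exceeded the other gates by 4.302 ± 0.20 for col1a1a, 4.11 ± 0.19 for col1a2 and 3.92 ± 0.22 for col1a1b. These are log2 differences with the SE of the shared fit over 4 libraries, with edgeR adjusted p of 1.5e-17, 1.7e-19 and 2.0e-14.

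The proportions of the type I chains changed little between libraries in the fibroblast gate and more in the endocardium. Of the type I UMIs in the fibroblast gate, col1a1b took 43.4, 40.5, 37.2 and 38.0%, col1a1a 26.7, 29.1, 29.2 and 29.6% and col1a2 29.9, 30.4, 33.5 and 32.4%. In the epicardium col1a1b took 41.2, 43.9, 47.3 and 41.8%, and in the endocardium 55.1, 47.5, 53.3 and 42.5%. Type I as a whole made up 53.3, 63.6, 53.9 and 51.7% of the collagen UMIs of the fibroblast gate and 55.4, 62.5, 53.5 and 57.7% of those of the epicardium. The alpha 1 paralogues share sequence, and how reads common to both were counted could shift their split.

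Type V is a minor partner in type I fibrils and is known for limiting their width. The fibroblast gate held 90.4, 184, 156 and 348 CPM of col5a1 (ENSDARG00000012593) and 17.3, 41.8, 40.5 and 50.2 CPM of col5a2a (ENSDARG00000031678). Epicardial col5a1 was 22.9, 52.3, 30.9 and 58.5 CPM. The difference from the other gates was 4.09 ± 0.23 for col5a1 and 3.33 ± 0.24 for col5a2a in the fibroblast gate (log2, SE), with edgeR adjusted p of 3.4e-14 and 3.3e-17. A scarcer chain, col5a3a, measured 4.95, 6.79, 2.13 and 7.72 CPM in fibroblasts and 0.514, 1.18, 0.502 and 0.494 CPM in the epicardium, and every fibroblast value was above every epicardial one, although the fibroblast values rest on 4, 13, 1 and 6 UMIs.

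The makeup of type V differed between gates. In fibroblasts col5a1 supplied 80.2, 79.1, 78.5 and 85.7% of the type V UMIs. In smooth muscle and mural cells col5a2a supplied 15.4, 55.8, 51.1 and 55.6%, so 3 libraries had a majority of col5a2a and 6hps replicate 1 did not. These mural shares rest on 254 type V UMIs in all and on as few as 26 in a library, so a majority this slim is not firm. The mural level of col5a2a was 2.36, 16.5, 13.1 and 17.9 CPM, and its difference from the other gates was 1.70 ± 0.26 (log2, SE, edgeR adjusted p = 7.3e-07). Mural col5a1, at 12.98, 12.1, 12.1 and 14.3 CPM, did not pass the same test (-0.09 ± 0.36, adjusted p = 0.97).

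Type VI chains assemble into filaments that link cells to the surrounding matrix. In fibroblasts col6a1 (ENSDARG00000074908) measured 63.1, 144, 132 and 250 CPM. The more abundant identifier of col6a3 (ENSDARG00000077139) measured 47.0, 129, 78.9 and 241 CPM, and col6a2 (ENSDARG00000061436) 43.3, 110, 51.2 and 230 CPM. All were highest in 6hpci replicate 2 and lowest in 6hps replicate 1. The log2 differences from the other gates were 3.72 ± 0.22, 3.88 ± 0.25 and 3.75 ± 0.22.

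Another type VI chain, col6a4a (ENSDARG00000079752), was spread differently. It measured 5.31, 34.2, 19.2 and 54.8 CPM in smooth muscle and mural cells, 16.1, 29.8, 8.53 and 45.1 CPM in fibroblasts, 5.31, 13.5, 10.0 and 41.5 CPM in the epicardium and 6.27, 18.3, 6.72 and 20.1 CPM in the endocardium. These ranges overlapped, and the difference between the mural and fibroblast gates did not pass the test (0.20 ± 0.43, edgeR adjusted p = 0.90, with the mural gate higher in 3 of 4 libraries). Erythrocytes lay at 1.60, 4.54, 2.19 and 1.80 CPM.

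Within type VI, however, col6a4a made up 19.1, 51.1, 40.7 and 49.5% of the mural UMIs against 9.49, 7.17, 3.10 and 5.85% of those in fibroblasts. The share of col6a2 went the other way, at 10.6, 12.1, 5.81 and 7.53% of the mural and 25.5, 26.5, 18.6 and 29.9% of the fibroblast type VI UMIs. Neither pair of ranges overlapped. The mural col6a4a UMIs did not come from a few cells, since no cell gave more than 6 of the 9, 178, 35 and 46 UMIs, and 11.8, 29.4, 14.2 and 34.3% of the mural cells had at least 1, against 1.56, 5.45, 2.43 and 1.61% of erythrocytes.

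Set against the other gates, smooth muscle and mural cells were higher in 3 chains of 15 and lower in none (background: 6.76% higher and 0.759% lower). These were col6a4a (2.64 ± 0.29, adjusted p = 2.8e-08), col5a2a and col1a2 (0.91 ± 0.24, adjusted p = 0.012). The last of these rests on the log scale of the comparison, because in CPM its mural level was below the arithmetic mean of the other gates in all 4 libraries. Compared with fibroblasts alone, the mural gate was higher in 0 and lower in 13 of 15 chains (background: 3% higher and 3.24% lower). The 2 chains that did not pass were col6a4a and col12a1a. Of the 5 chains with the largest falls, col18a1b fell by 4.12, col6a2 by 4.08, col5a1 by 3.72, col1a1a by 3.59 and col6a1 by 3.54 on the log2 scale.

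Type IV chains col4a1 and col4a2 pair in nearly every basement membrane. The fibroblast gate held 9.90, 20.9, 23.5 and 48.9 CPM of col4a1 (ENSDARG00000055009), the endocardium 4.61, 14.3, 6.13 and 13.8 CPM, the epicardium 2.23, 5.58, 2.26 and 8.74 CPM and the erythrocytes 2.49, 2.77, 1.39 and 1.92 CPM. The chain col4a2 (ENSDARG00000104110) measured 1.47, 8.07, 3.51 and 7.37 CPM in the endocardium and 2.48, 12.02, 4.26 and 25.7 CPM in fibroblasts. The fibroblast gate was thus above the endocardium in each library for both chains. Its values rest on 144 UMIs of col4a1 and col4a2 together, and on as few as 10 in a library. The order for col4a2, the scarcer chain, is therefore not firm in every library.

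Type IV took a larger share of the collagen in the endocardium than in the fibroblast and epicardium gates. It made up 4.78, 7.12, 6.82 and 8.38% of the endocardial collagen UMIs, 1.53, 1.499, 2.16 and 2.57% of those in fibroblasts and 1.09, 1.19, 0.833 and 1.25% in the epicardium, and the endocardial range overlapped with neither of these. It did overlap with those of ventricular cardiomyocytes (7.35, 4.34, 4.38 and 3.91%), erythrocytes (7.55, 2.97, 2.24 and 4.45%) and the mural gate (5.64, 2.67, 1.27 and 1.22%), all of which were above the endocardium in 6hps replicate 1. The macrophage range (1.75, 3.45, 2.56 and 5.96%) overlapped with the endocardial range as well, although each value was below the endocardial value of the same library. Within the pair, col4a1 gave 75.8, 63.9, 63.6 and 65.3% of the endocardial UMIs. Against the other gates the endocardium was higher in 6 chains of 15 and lower in 1 (background: 19.2% higher and 18% lower). The 6 were col4a2 (1.61 ± 0.29), col4a1 (1.33 ± 0.27), col6a4a (1.203 ± 0.29), col6a2 (1.18 ± 0.22), col5a2a (0.87 ± 0.23) and col6a1 (0.69 ± 0.24), and the lower chain was col18a1a (-0.63 ± 0.23, adjusted p = 0.024). The call of col6a1 rests on the log scale, because its mean endocardial level of 23.5 CPM was below the arithmetic mean of the other gates, 29.8 CPM, and was so in all 4 libraries. For col5a2a the means were 8.45 and 8.23 CPM, with the endocardium higher in 2 of 4 libraries, and col6a2 was higher in 3 of 4.

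Endocardial col6a2 was 9.21, 34.1, 12.3 and 38.2 CPM and col6a1 12.7, 25.3, 23.1 and 32.8 CPM. Type VI as a whole made up 27.1, 29.5, 36.2 and 41.6% of the endocardial collagen. The fibril chains of type I did not pass the test against the other gates there, with col1a1b at 25.98, 63.5, 26.3 and 36.6 CPM and a log2 difference of 0.04 ± 0.27 (edgeR adjusted p = 0.92).

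The type XVIII paralogues had their highest mean levels in different gates. The level of col18a1a (ENSDARG00000036558) in atrial cardiomyocytes was 33.6, 38.3, 33.7 and 46.9 CPM, a mean of 38.1 ± 6.24 (SD, n = 4), while ventricular cardiomyocytes had 4.75, 3.50, 5.71 and 3.01 CPM. Every atrial value was above every ventricular value. Near the limit of their gates lay 1207 of 5347 atrial cells (22.6%) and 2388 of 6717 ventricular cells (35.6%). The paralogue col18a1b (ENSDARG00000095901) measured 0.867, 3.06, 0.991 and 0.682 CPM in the atrial gate, and 44.6, 78.4, 49.0 and 73.4 CPM in fibroblasts. The atrial gate was thus high in the first paralogue and low in the second, of which the fibroblast gate held the most. Fibroblasts were also high in col18a1a, at a mean of 29.5 CPM, and the atrial gate was the highest in 3 of 4 libraries.

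The atrial gate was chosen for this comparison after its levels had been seen, so the test describes these libraries and is not independent of the choice. Against the other gates, col18a1a was higher in atrial cells by 2.08 ± 0.16 (log2, SE, edgeR adjusted p = 5.8e-15) and was the only chain of 15 that was higher, while 13 were lower (background: 25.8% higher and 25.1% lower). The log2 difference stayed between 1.75 and 2.25 when each library was left out in turn. Between atrial and ventricular cardiomyocytes, col18a1a was again the only one of 15 chains called, at 3.04 ± 0.27 higher (adjusted p = 6.7e-13; background: 7.24% higher and 5.01% lower).

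Atrial cells were deeper than ventricular cells in every library, with median depths of 16040, 10489, 8770 and 7484 UMIs against 4993, 7308, 6327 and 3936 UMIs. A col18a1a UMI was found in 36.0, 32.5, 26.6 and 28.4% of atrial cells, in 3.21, 2.90, 3.89 and 1.90% of ventricular cells and in 11.3, 7.83, 9.63 and 2.98% of erythrocytes. In CPM the atrial cells were above the ventricular cells as well. The part of depth in these shares of cells was not tested. Fibroblast markers summed to 28, 97, 54 and 25 CPM in the atrial gate. The atrial minus ventricular difference of col1a1b did not pass (0.00 ± 0.40, edgeR adjusted p = 0.999). The part of fibroblast RNA in the atrial values was not tested.

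The share of col18a1a among type XVIII UMIs was 97.5, 92.6, 97.1 and 98.6% in atrial cells, 37.9, 22.7, 23.3 and 41.8% in fibroblasts and 41.6, 13.3, 26.9 and 7.85% in the epicardium. In erythrocytes it was 93.4, 63.1, 76.2 and 65.0%, and their col18a1a level was 12.6, 6.77, 10.6 and 4.41 CPM. The erythrocyte level was above the ventricular level in each library. The epicardium, at 8.05, 3.53, 7.28 and 4.29 CPM of col18a1a, was lower than the mean of the other gates (-0.74 ± 0.24, edgeR adjusted p = 0.017), whereas its col18a1b, at 11.3, 23.1, 19.8 and 50.3 CPM, was higher by 3.07 ± 0.29 (adjusted p = 2.5e-09). Fibroblasts were higher in both, by 1.58 ± 0.24 for col18a1a and by 4.01 ± 0.33 for col18a1b. Type XVIII made up 61.6, 35.8, 46.9 and 71.3% of the atrial collagen UMIs against 8.88, 4.61, 4.98 and 4.34% in fibroblasts.

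**Figure D3:**
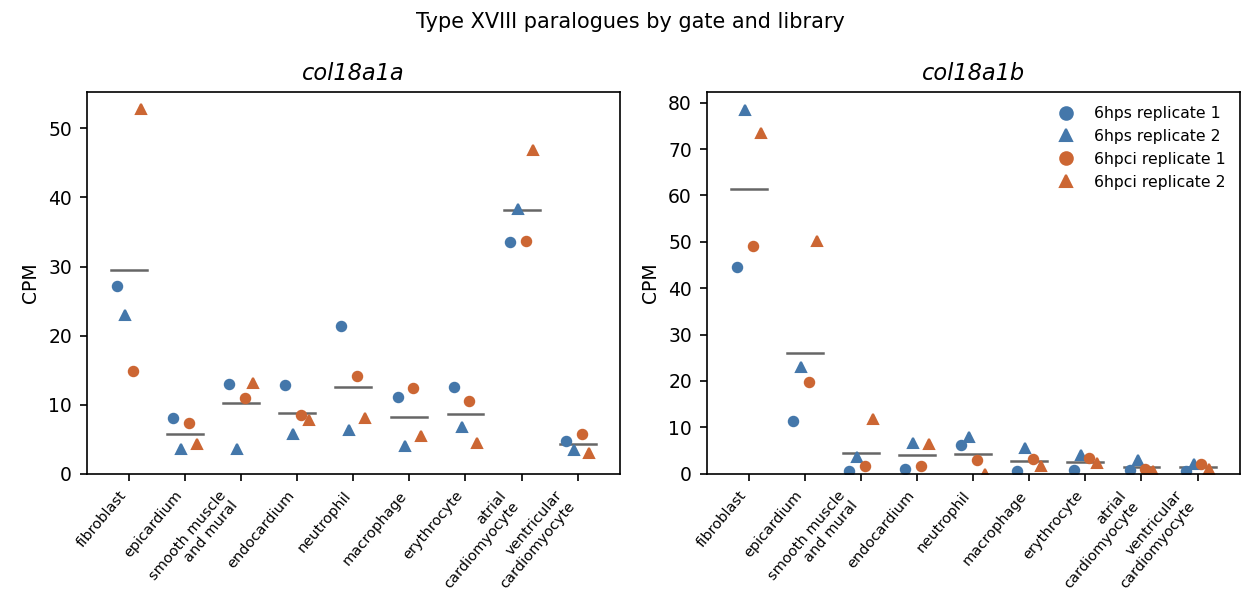
CPM of the type XVIII paralogues col18a1a and col18a1b (vertical axes, linear from 0) in the 9 gates; each point is 1 library. Atrial cardiomyocytes lie at 33.6 to 46.9 CPM for col18a1a and at 0.682 to 3.06 CPM for col18a1b, for which fibroblasts lie at 44.6 to 78.4 CPM.

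Type XII attaches to the surface of fibrils. Its main chain, col12a1a (ENSDARG00000078322), measured 12.7, 13.95, 8.79 and 7.42 CPM in the epicardium and 7.43, 5.22, 14.9 and 11.6 CPM in fibroblasts. Their difference did not pass the test (fibroblast minus epicardium -0.72 ± 0.42 log2, edgeR adjusted p = 0.48, with fibroblasts higher in 2 of 4 libraries). Against the other gates col12a1a was higher in the epicardium by 3.09 ± 0.25 and in fibroblasts by 2.28 ± 0.43.

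In all, 11 chains of 15 were higher in the epicardium than in the other gates and 1, col18a1a, was lower (background: 16.9% higher and 8.25% lower), with a median of 2.23 beside -0.07 over all genes. Of the 11, col5a2a (1.12 ± 0.23) was above the arithmetic mean of the other gates in 2 of 4 libraries, at a mean of 7.24 CPM against 8.38 CPM. Fibroblasts were higher than the epicardium itself in 11 of 15 chains and lower in 0 (background: 1.44% higher and 4.11% lower). The differences were 1.78 ± 0.36 for col5a1, 1.97 ± 0.31 for col5a2a, 2.69 ± 0.59 for col5a3a and 2.06 ± 0.32 for col18a1a. The chains that did not pass were col1a1b (0.98 ± 0.36, adjusted p = 0.13), col18a1b (0.84 ± 0.43), col6a4a (0.17 ± 0.42) and col12a1a. In CPM, fibroblasts were still higher in 4 of 4 libraries for col1a1b and for col18a1b. They were higher in 3 of 4 for col6a4a and in 2 of 4 for col12a1a. Mean col1a1b was 395 CPM in fibroblasts and 144 CPM in the epicardium. The fitted differences include a scaling between library and gate sums, of the kind described below. With each library left out in turn, 5 to 13 chains passed, and 5, 6 and 7 passed without 6hps replicate 1, 6hps replicate 2 and 6hpci replicate 1.

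The scarce type X chain col10a1b (ENSDARG00000101535), related in mammals to the collagen of growing cartilage, had 342 UMIs. Atrial cardiomyocytes held 2.71, 1.73, 2.15 and 1.501 CPM, ventricular cardiomyocytes 0.250, 0.142, 0.295 and 0.225 CPM and neutrophils 0, 0.572, 1.49 and 8.08 CPM. The neutrophil value of 6hpci replicate 2 came from 6 UMIs, 5 of them in 1 cell. In the atrial gate 72, 30, 26 and 22 UMIs were counted, so there the levels rest on more molecules, and each atrial value was above each ventricular one. This chain was too low for the test.

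Some rare chains reached their highest level among fibroblasts. The fibrillar chain col27a1b measured 0, 3.13, 2.13 and 6.44 CPM there, col8a1b, a chain of short-chain networks, 0, 1.57, 2.13 and 6.44 CPM, and the fibril-associated chain col16a1 1.24, 3.13, 0 and 2.57 CPM. With fibroblast totals this small, each of these values rests on a few UMIs, and their order among gates is not firm.

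The genes that process collagen were followed in 6 lists of 90 genes, 10 of which were not found in the gene table. In the fibroblast gate, compared with the other gates, 6 of 14 tested genes of chain hydroxylation and folding were higher, 1 of 7 of procollagen export, 3 of 4 of propeptide removal, 5 of 6 cross-linking oxidases, 7 of 10 collagen-binding matrix proteins and 2 of 3 collagen receptors. None was lower. The median log2 differences were 1.01, 0.13, 2.50, 2.53, 3.19 and 1.53, beside -0.12 over all genes, of which 6.02% were higher. In the epicardium gate 7, 1, 3, 3, 6 and 2 genes of these lists were higher, in the same order, and none was lower. The numbers tested were the same as for fibroblasts (background: 16.9% of all genes higher and 8.25% lower). In the mural gate 7, 3, 2, 3, 2 and 1 genes were higher, in the same order, and none was lower (background: 6.76% higher and 0.759% lower). For hydroxylation and folding and for export, the mural counts were thus above the fibroblast counts.

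The matrix genes were the most abundant. The level of sparc, a collagen-binding glycoprotein, was 879, 1822, 1149 and 2283 CPM in fibroblasts and 47.5, 164, 110 and 59.3 CPM in erythrocytes, and its difference from the other gates was 3.24 ± 0.20 (log2, SE, edgeR adjusted p = 3.1e-13). Fibronectin fn1b measured 660, 977, 704 and 1724 CPM (4.01 ± 0.26), and pcolcea, which speeds the removal of the propeptide, 163, 260, 130 and 480 CPM (3.47 ± 0.27). For all 3 genes each fibroblast value was above each erythrocyte value. The basement membrane linker nid1a had a mean of 72.1 CPM and a difference of 3.44.

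Among the enzymes, the proline isomerase ppib was at 365, 557, 360 and 1069 CPM in fibroblasts and was higher by 1.35 ± 0.16 (log2), with a mean of 588 CPM beside 594 CPM in the epicardium. The disulfide isomerase p4hb (mean 80.1 CPM, 0.80) and fkbp7 (26.7 CPM, 2.13) also passed. The propeptide proteases adamts2 (12.2 CPM) and bmp1a (8.73 CPM) were higher by 3.76 and 1.53, and the oxidases loxl2a (15.5 CPM), loxl1 (14.8 CPM) and loxl3b (4.74 CPM) by 2.45, 1.57 and 2.61. In mean CPM, loxl1 was higher in the endocardium (25.9) and in smooth muscle and mural cells (25.01) than in fibroblasts.

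Export genes were closer to even. The receptor kdelr2b (22.4 CPM in fibroblasts) was higher by 1.01, while sar1b (15.7 CPM, 0.42) did not pass and sec13 was at 9.13 CPM. The collagen chaperone serpinh1b had 9.21 CPM in fibroblasts, 30.1 CPM in the endocardium and 18.5 CPM in smooth muscle and mural cells, and its fibroblast difference of 0.30 did not pass. Of the receptors, itgb1a (20.5 CPM, 2.02) and itga1 (3.59 CPM, 1.53, adjusted p = 0.044) passed, and ddr2a, at 2.36 CPM, was too low to test.

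The main question of the design is what cryoinjury changed beside the sham operation at 6 h. Without regard to the replicate pairs, no collagen chain passed the test in the fibroblast, epicardium, smooth muscle and mural or endocardium gate (background: 0% of all genes called in each gate). The edgeR test called 0 of 2057, 6134, 3214 and 6824 genes in these 4 gates, where 119, 606, 212 and 193 genes lay under 0.05 before adjustment, and DESeq2 called 4, 25, 4 and 9 genes, none of them a chain. The libraries of a group lay far apart for many chains, as the values below show.

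With the replicate number as a block, which leaves 1 residual degree of freedom, 4 of 16 chains were called higher in the epicardium (background: 3.2% higher and 1.01% lower). They were col6a4a (2.23 ± 0.47 log2, SE, edgeR adjusted p = 0.00044), col18a1b (1.88 ± 0.45, adjusted p = 0.0035) and the type VI chains col6a3 (1.74 ± 0.46, adjusted p = 0.0091) and col6a1 (1.56 ± 0.46, adjusted p = 0.024). No chain was called in the fibroblast, mural or endocardium gate in this fit, where the background was 0.0972% higher and 0.0486% lower in fibroblasts, 0.342% higher and 0.0622% lower in mural cells and 0.542% higher and 0.22% lower in the endocardium. Within each replicate number, CPM was higher after cryoinjury for 11 of 16 tested chains in the epicardium (background: 7.17% of genes), 9 of 12 in fibroblasts (background: 14%), 4 of 10 in mural cells (background: 437 of 3214 genes) and 4 of 13 in the endocardium (background: 5.52%). The epicardial col6a4a rose by 0.92 within replicate 1 and by 1.62 within replicate 2 on the log2 scale of CPM, and col18a1b by 0.81 and 1.12. The fitted changes of both chains were larger than these rises. All fitted changes include a scaling between libraries, described below. In the epicardial fit without the block, the median log2 change after scaling was -0.02 over all genes and 1.34 over the 16 chains. By total UMIs these medians were -0.81 and 0.30.

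Collagen made up 0.0808 and 0.220% of the fibroblast UMIs after sham and 0.129 and 0.291% after cryoinjury. The means were 0.150 and 0.210%, a ratio of 1.40, and the groups overlapped (exact two-sided permutation test, p = 0.667, where 2 libraries against 2 cannot go below 0.333). The ratio was 1.31 in the epicardium (p = 0.667, exact), 1.36 in smooth muscle and mural cells (p = 0.667, exact) and 0.899 in the endocardium (p = 1, exact). Without 6hps replicate 1 or without 6hpci replicate 2, the fibroblast difference turned negative, from 0.0593 percentage points to -0.0101 and -0.0216.

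The fitted fold changes of single chains were mostly above 0. After scaling by TMM (trimmed mean of M-values), 12 of 12 tested chains had a positive log2 fold change in fibroblasts, 16 of 16 in the epicardium, 10 of 10 in smooth muscle and mural cells and 12 of 13 in the endocardium, with medians of 0.81, 1.34, 0.93 and 0.75 beside -0.01, -0.02, -0.05 and -0.03 over all genes. The chains share libraries and cells, so these are not independent. By total UMIs instead, the median of all genes fell by 0.23, 0.81, 0.49 and 0.47 in the 4 gates, the chain medians were 0.52, 0.30, 0.49 and 0.07, and 11 of 12, 11 of 16, 10 of 10 and 7 of 13 chains were above 0.

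In fibroblasts col4a1, the basement membrane chain, was the only chain of 12 with both cryoinjury libraries above both sham libraries in CPM (background: 6.27% of genes). It measured 9.90 and 20.9 CPM after sham and 23.5 and 48.9 CPM after cryoinjury, from 8, 40, 11 and 38 UMIs. Its fold change was 1.47 ± 0.59 (log2, SE, edgeR adjusted p = 0.77), which did not pass. In smooth muscle and mural cells this order was seen for col6a1 alone of 10 chains (background: 5.51%), at 9.44 and 8.64 CPM against 11.5 and 14.3 CPM (0.95 ± 0.51, adjusted p = 0.64). No chain showed it in the epicardium (background: 3.05%) or in the endocardium (background: 2.33%). In the epicardium 1 chain of 16, col12a1a, had both cryoinjury libraries below both sham libraries (background: 62.7% of genes), although its fitted change was 0.17 ± 0.44.

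The main fibril chains overlapped between the groups. For col1a1b the fold change was 0.43 ± 0.65 in fibroblasts (adjusted p = 0.94) and 1.32 ± 0.73 in the epicardium (adjusted p = 0.56). In fibroblasts col5a1 had 1.15 ± 0.59, col6a1 1.15 ± 0.57, col6a2 1.18 ± 0.77 and col6a3 1.15 ± 0.70 (adjusted p of 0.77, 0.77, 0.85 and 0.83). The largest fitted changes lay in the epicardium, where col6a4a was 5.31 and 13.5 CPM after sham and 10.0 and 41.5 CPM after cryoinjury (2.49 ± 0.80, adjusted p = 0.47), and col18a1b 11.3 and 23.1 CPM against 19.8 and 50.3 CPM (2.03 ± 0.66, adjusted p = 0.47). Both chains overlapped between the groups when the pairs were not kept, and both were higher after cryoinjury within each replicate number.

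**Figure D4:**
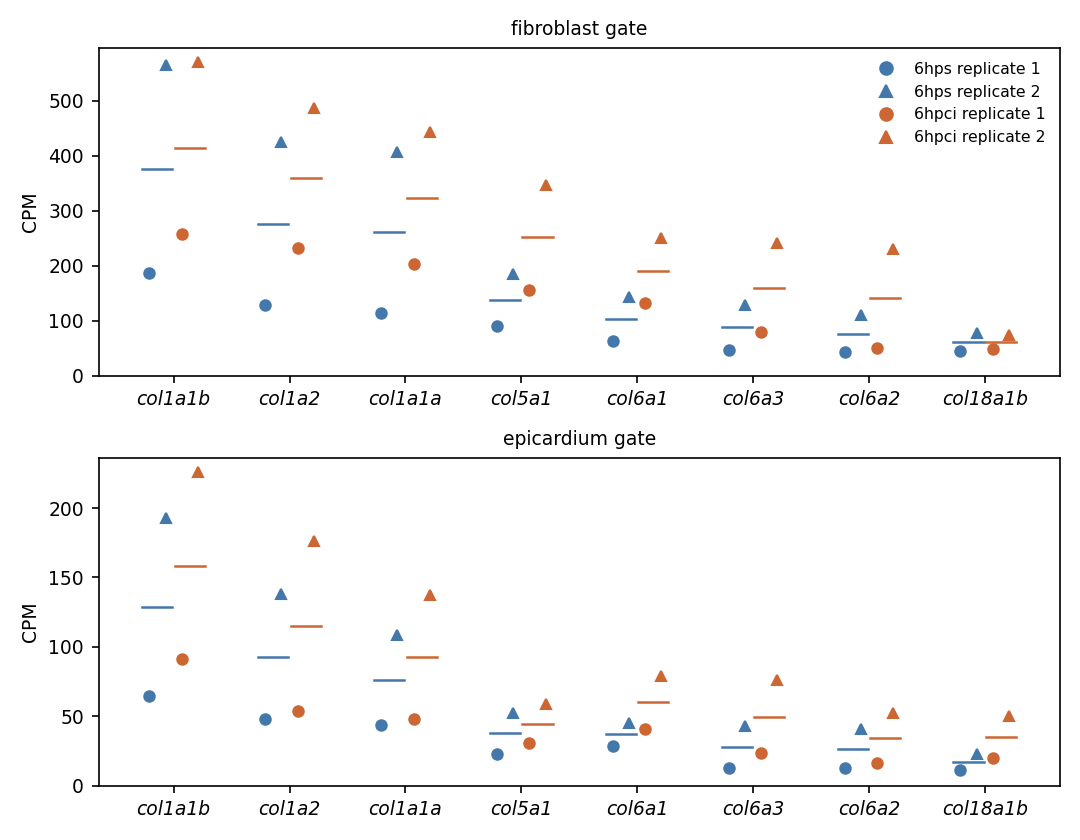
CPM of the main collagen chains (horizontal axis) in the fibroblast and epicardium gates, with 1 point for each library and linear vertical axes from 0. For col1a1b in fibroblasts the sham libraries lie at 187 and 565 CPM and the cryoinjury libraries at 258 and 570 CPM, and the groups overlap.

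**Figure D5:**
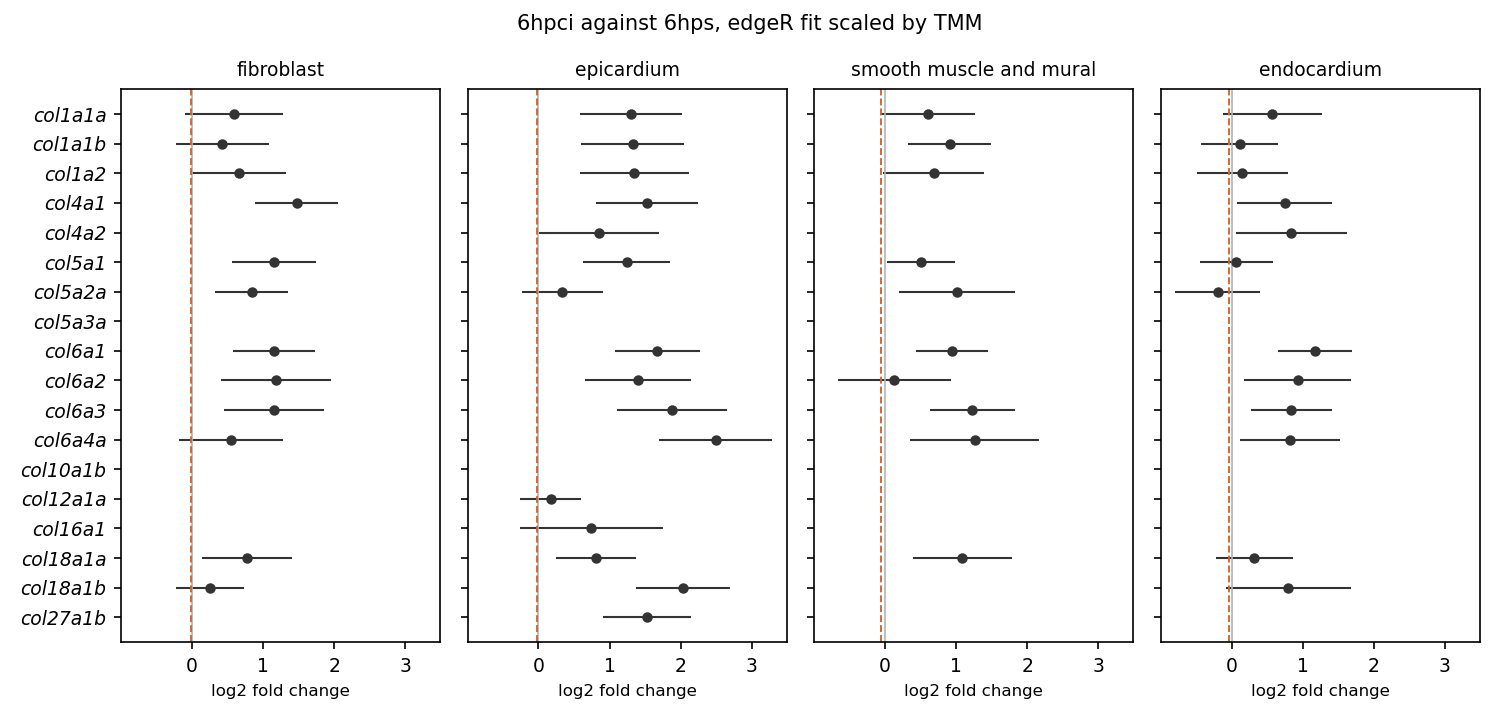
Log2 fold change of each tested chain at 6hpci against 6hps in 4 gates; points are edgeR estimates, bars are 1 standard error, and the dashed line is the median of all genes tested. Most points lie above 0, and no chain passed the test in this fit, which has no replicate block.

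The outcome depended on single libraries. Without 6hpci replicate 1, fibroblast log2 fold changes were 2.02 for col4a1, 2.00 for col6a2 and 1.87 for col6a3. Those of col5a1 and col6a1 were 1.76 and 1.69. In the epicardium the same omission gave 3.24 for col6a4a, 2.64 for col18a1b, 2.58 for col6a3, 2.25 for col4a1 and 2.18 for col6a1. Without 6hps replicate 2, smooth muscle and mural cells had 3.31 for col6a4a and 3.18 for col5a2a. Without 6hpci replicate 2, col1a1a, col1a1b, col1a2, col6a2, col6a3 and col18a1b had negative fold changes in fibroblasts. Each of these fits leaves 1 library in a group, which is assumed to vary like the others. The chains with positive values here were picked by the same fits, which also moved many other genes.

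Cell and RNA composition moved with some of these values. The haemoglobin share of the epicardium gate was 0.535, 1.15, 2.94 and 1.12%, and cardiomyocyte marker RNA was 5.06, 4.09, 3.48 and 1.5003%. The epicardial markers themselves summed to 5748, 7321, 3864 and 12930 CPM, so the library with the highest epicardial collagen, 6hpci replicate 2, also had the highest marker level. Their part in the collagen values was not tested.

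Whether the injury change of a chain differed between fibroblasts and epicardium was tested as an interaction. Of 5502 genes 9 were called (background: 0.164%), and of 16 chains 0, while 401 genes and 2 chains had an unadjusted p under 0.05. The 2 were col6a4a (fibroblast minus epicardium -1.89 ± 0.53 log2, edgeR adjusted p = 0.076) and col18a1b (-1.57 ± 0.44, adjusted p = 0.081). The interaction passed for col18a1b under some other choices of cells. The differences were -1.68 in a stricter gate, -1.56 with mixed cells kept, -1.73 with a limit of 25% mitochondrial UMIs and -1.47 without dcn and lum as markers. The edgeR adjusted p was 0.047, 0.0065, 0.031 and 0.045, in that order. The stricter gate could also take in cells that the main gate left out as mixed. With mixed cells kept, col6a4a passed as well (-1.78, adjusted p = 0.0083). Each of these choices also called more genes in all than the main fit, as counted in the section on processing below. No chain passed with DESeq2's size factors or with no filter on low counts. Without 6hpci replicate 1, a fit that leaves 1 cryoinjury library, the difference of col18a1b was -1.87.

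None of the 6 lists of collagen-processing genes held a gene called between cryoinjury and sham in these gates without the block. The edgeR test and DESeq2 both called 0 of 15, 35, 18 and 33 list genes tested in the fibroblast, epicardium, mural and endocardium gates. By edgeR 1, 7, 2 and 2 of them had a p under 0.05 before adjustment. Over all genes these counts were 119 of 2057, 606 of 6134, 212 of 3214 and 193 of 6824. With the replicate block 3 of 35 epicardial list genes were called higher (background: 3.2% of all genes higher and 1.01% lower). They were itgb1a (2.07 ± 0.46, edgeR adjusted p = 0.00088), adamts2 (1.88 ± 0.47, adjusted p = 0.0050) and nid1a (1.67 ± 0.46, adjusted p = 0.013). These fitted changes include the TMM scaling as well. No list gene was called in the other 3 gates. In fibroblasts sparc had a fold change of 0.63 ± 0.49 and pcolcea 0.83 ± 0.68, and each overlapped between the groups.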

How the data were processed

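The libraries were made with the droplet 3′ protocol after iodoacetamide treatment (scSLAM-seq). The deposited matrices hold UMI counts per gene and barcode, which the authors made with Cell Ranger 4.0.0 (submitters' processing notes) on GRCz11 with an added RFP sequence. No column of per-sample values was left unmapped (0). Positions and sequences of the genes are not used here.

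Barcodes were kept from 500 UMIs and 200 genes upward, up to a limit of 50% of UMIs from the 37 mitochondrial genes. For 16 marker classes (129 genes, 6 absent from the gene table), the summed marker UMIs of a cell were scored against the library-wide share as -log10 of the Poisson tail. A cell was gated at a score of at least 6 with at least 3 markers detected, and left out as mixed where a second score reached 50% of the first. The stricter gate used a score of 10 and 4 markers. A second score under 10 then no longer made a cell mixed, so this gate could take in cells left out of the main gate. In 6hpci replicate 1 its fibroblast gate held 67 cells with 563747 UMIs, against 105 cells with 468939 UMIs in the main gate. It is therefore not a subset of the main gate. Cells were thinned to 1000 UMIs with seed 7. No doublet caller was run.

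Counts were summed per library and gate. They were tested with edgeR 4.0.16 (R 4.3.3, quasi-likelihood, robust, TMM, filterByExpr with a minimum count of 10, Benjamini-Hochberg over all genes, threshold 0.05). DESeq2 1.42.0 was an alternative. Standard errors were derived from the F statistic and the fold change. Shares were compared by exact permutation over libraries. Python 3.11.15 with pandas 2.3.3, numpy 2.4.6, scipy 1.17.1 and matplotlib 3.10.9 was used. The scripts were tested on simulated data.

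The chains described are those at 50 CPM or more in any gate, those called after injury and the highest chain of each type. From each list at most 3 genes were taken by fibroblast level, besides serpinh1b, which was added after its values were seen, as were scarce chains beyond these. The genes and lists were chosen with earlier results of these data known. Other normalizations, filters, gates, a replicate block and each library left out were tried. The study speaks of replicate pairs and of a replicate experiment, yet calls each library experimentally independent and names no shared day or batch. Deviations from the group means correlated between same-numbered libraries at 0.265, 0.399, 0.371 and 0.353 in the fibroblast, epicardium, mural and endocardium gates. The correlation was 0.227 to 0.344 in 4 others and -0.112 in neutrophils. With 2 libraries a group, pairing them the other way only reverses the sign of these values, and all gates share the same libraries. The correlations therefore cannot show whether same-numbered libraries share a batch. The fit with the replicate block is given beside the injury tests. The totals without mitochondrial and haemoglobin UMIs and the fits with no scaling beyond total UMIs were chosen after seeing the data.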

Additional observations from a re-analysis of the deposited data

Results flagged for a closer look

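The injury change differed between the fibroblast and epicardium gates for 9 of 5502 genes (edgeR interaction test, adjusted p under 0.05), and none of the 16 chains was among them. The smallest adjusted p of a chain was 0.076.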

How the results depend on the processing

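Of 443 alternative values, 357 kept their direction, their side of the threshold or, for counts, stayed within 1.5 times. In the rest, 15 changed sign, 67 moved and 4 newly passed, and the cause of each was not tested. Part of this tally was fixed in advance. The 37 alternatives for collagen shares, of which 30 were kept, could change sign but could not pass the threshold with so few libraries. Counts that stayed at 0 were also scored as kept. The injury test called 0 genes in the fibroblast, epicardium, smooth muscle and endocardium gates, and in that order 24, 76, 20 and 25 with no filter on low counts, 4, 25, 4 and 9 with DESeq2, and 7 to 147, 0 to 233, 0 to 91 and 10 to 69 with each library left out in turn. Chains called ran from 0 to 5, 0 to 5, 0 to 2 and 0 to 0 over the same omissions, and with no filter 1 epicardial chain, col6a4a, was called. With the replicate number as a block, 3, 258, 13 and 52 genes were called, and 4 chains in the epicardium (col6a4a, col18a1b, col6a3 and col6a1).

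The interaction called 9 genes and 0 chains. With DESeq2's size factors it called 73 genes, with no filter 5, in the stricter gate 14 genes and 1 chain, with mixed cells kept 127 and 2, with a limit of 25% mitochondrial UMIs 128 and 1, without dcn and lum 98 and 1, and over the omitted libraries 0 to 126 and 0 to 1. Fibroblasts and epicardium differed in 475 genes and 11 chains, against 283 genes in the stricter gate, 293 with no scaling beyond total UMIs, 7 chains with a limit of 25% mitochondrial UMIs, and 297 to 373 genes and 5 to 13 chains over the omissions. Chains higher in the mural gate numbered 3, or 5 with no filter and 2 to 5 over the omissions, where its higher genes (579) ran from 290 to 637 and its differences from fibroblasts (535) from 286 to 530. Genes higher in the endocardium rose from 1645 to 2591 with no scaling beyond total UMIs.

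Fibroblast fold changes changed sign for col18a1b with no scaling (-0.0227), for col1a1b without 6hps replicate 1 (-0.0209) and without 6hpci replicate 2 for col1a1a, col18a1b, col6a3, col1a1b, col1a2 and col6a2; over the omissions these ran from -0.21 to 1.79, -0.18 to 0.75, -0.0156 to 2.08, -0.38 to 1.45, -0.0922 to 1.78 and -0.44 to 2.03. The difference in collagen share ran from -0.0216 to 0.140 percentage points in fibroblasts, -0.0131 to 0.0442 in the epicardium, -0.000512 to 0.0139 in mural cells and -0.0116 to 0.00714 in the endocardium. The fibroblast gate's depth, 105 to 331 cells a library, leaves most chains at a few UMIs, and differences in them were not detectable at this depth.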

Other observations

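Cells outside the gates also carried collagen RNA. It made up 0.00634, 0.0133, 0.0106 and 0.00907% of the UMIs of cells in no gate, and 0.0119, 0.0358, 0.0191 and 0.0345% of those of cells with mixed marker scores, in the order 6hps replicate 1, 6hps replicate 2, 6hpci replicate 1 and 6hpci replicate 2. Barcodes over the mitochondrial limit had 0.00429, 0.00694, 0.00715 and 0.00549%, below the cells in no gate in each library.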
